A study of Mus musculus with 12 samples.

Results

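The liver mRNA of the light phase was compared with that of the dark phase of the same day. All 12 samples of the series entered the comparison, 6 from the light phase (ZT2, ZT6 and ZT10, where ZT0 is lights on) and 6 from the dark phase (ZT14, ZT18 and ZT22), and each time point was sampled once in each of 2 independent series. The samples were chosen by their time labels alone, and the genes by their level, which left 10198 expressed genes (at least 1 value above 2 reads per base pair) of 20069 in the table. All animals were wild-type C57BL/6 adult males aged 3 to 6 months, kept in 12 hr of light and 12 hr of darkness for at least 2 weeks, with no other genotype or treatment in either group. The values are the mean coverage of the exons of a gene in reads per base pair (rpbp), scaled by the authors to the uniquely mapped sequences of each sample.

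Mice are nocturnal, so the light phase is their rest phase and most feeding falls in the dark phase. The liver clock is a loop in which BMAL1 (Arntl) and CLOCK drive the Per and Cry genes through E-boxes, and the PER and CRY proteins repress that drive. The REV-ERB receptors (Nr1d1 and Nr1d2) repress Arntl and other genes through ROR elements, and the PAR bZIP factors Dbp, Tef and Hlf act on D-boxes, where Nfil3 opposes them. A gene can therefore change over the day with its peak at any hour, and only a gene whose high hours coincide with one phase separates light from dark.

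The tissue label was checked against markers, and 13 of 13 hepatocyte markers on the list were expressed while 0 of 12 lymphocyte markers were. The ZT2 samples of both series stood apart from the other 10. Alb, the main secreted protein of hepatocytes, took 3.26% and 3.50% of the summed signal at ZT2 and between 6.16% and 8.21% elsewhere. In 1384 genes both ZT2 values lay above all 10 others and in 1137 genes below them, against 251 to 805 and 256 to 557 genes for the other time points. Moxd1, a monooxygenase-like gene, was at 61.52 and 57.24 rpbp at ZT2 and at most at 0.08 rpbp in any other sample. Cyp2b9, a cytochrome P450, was at 0.12 and 0.21 rpbp at ZT2 and between 16.8 and 156.8 rpbp elsewhere. Saa1, an acute phase protein, reached 3578 and 3229 rpbp at ZT2, 1312 rpbp in the ZT22 sample of series 2 and at most 58.2 rpbp in the other 9 samples. These genes were picked after their values were seen. A property of the ZT2 animals and the hour itself cannot be told apart here, so the main counts below are also given without both ZT2 samples.

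Few genes separated the phases by more than their spread within a phase. In the light-dark test (limma on 6 against 6 samples), 34 of 10198 genes had an adjusted p below 0.05, which is 0.333% of the genes tested. Of these, 13 (0.127%) were higher in the light phase and 21 (0.206%) higher in the dark phase. At an unadjusted p below 0.05 there were 1352 genes, 760 of them higher in the light phase. The median log2 difference over all expressed genes was 0.021, and the median absolute difference was 0.108. Among the 34 genes the median absolute difference was 0.699, and all 34 had the same sign in both series taken alone. The spread in this test includes the change between the 3 time points of a phase. A time-point test, which takes the mean of each phase over its time points and its error from the 2 samples of a time point, called 540 genes (5.30%), 232 higher in light (2.27%) and 308 higher in dark (3.02%). Without the 2 ZT2 samples, the light-dark test called 523 genes (5.13%), 252 higher in light (2.47%) and 271 higher in dark (2.66%). Between the latter tests 263 genes were shared with the same direction, 48.7% of the 540 and 50.3% of the 523, and all 34 genes were called in both.

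Nr1d1, which encodes the heme-binding repressor REV-ERBα, had the largest difference of all expressed genes. It lies on the minus strand of chromosome 11 (mm9 chr11:98629246-98636647), and 1075 bases of it overlap Thra on the other strand, whose reads cannot be told apart where the signal is counted without strand. Its light-phase values were 5.16 at the lowest, 11.1 at the median and 35.4 rpbp at the highest, and its dark-phase values were 0.95, 1.33 and 3.63 rpbp. The phases did not overlap, and the log2 difference was 2.78 ± 0.48 (SE; adjusted p = 0.0288, limma). Within the light phase the gene was far from level, with means of 31.3 rpbp at ZT6 and 5.5 rpbp at ZT10 (within-phase adjusted p = 0.000764). The call was kept in 7 of 12 fits that leave out 1 sample.

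Cry1, the repressor of the CLOCK:BMAL1 pair, had the largest difference among the called genes higher in the dark phase. It lies on the minus strand of chromosome 10 (mm9 chr10:84594447-84647799). Its signal ranged from 1.51 to 4.91 rpbp in the light phase (median 2.13) and from 6.54 to 12.8 rpbp in the dark phase (median 9.62). All dark values exceeded all light values, by 3.70-fold on the log2 scale of the fit (log2 difference -1.89 ± 0.26, adjusted p = 0.0128, limma), and the call was kept in all 12 fits that leave out 1 sample.

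The promoters of Cry1, of its fellow repressor gene Gm129 (Ciart) and of Arntl are printed because their genes lay on different sides of the comparison while carrying elements of the same loop. The light-dark test called only Cry1 of them, and not Gm129 (adjusted p = 0.646, limma) or Arntl (adjusted p = 0.276). In the time-point test Gm129 was light-higher and Arntl dark-higher. Each is 300 bases from RefSeq (GRCm38.p6), 250 before and 50 from the start onward. The E-box CACGTG is in capitals for Cry1 (chr10:85185005-85185304, minus strand) and Gm129 (chr3:95882179-95882478, minus strand), and the ROR element (AANTN followed by GGTCA) is in capitals for Arntl (chr7:113207261-113207560, plus strand).
Cry1: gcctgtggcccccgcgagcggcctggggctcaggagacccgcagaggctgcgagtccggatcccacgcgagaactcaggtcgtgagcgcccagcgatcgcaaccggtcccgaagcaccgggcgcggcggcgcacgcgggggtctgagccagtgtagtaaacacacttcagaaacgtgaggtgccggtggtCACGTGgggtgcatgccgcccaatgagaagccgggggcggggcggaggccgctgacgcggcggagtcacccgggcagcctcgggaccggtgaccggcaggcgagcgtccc
Gm129: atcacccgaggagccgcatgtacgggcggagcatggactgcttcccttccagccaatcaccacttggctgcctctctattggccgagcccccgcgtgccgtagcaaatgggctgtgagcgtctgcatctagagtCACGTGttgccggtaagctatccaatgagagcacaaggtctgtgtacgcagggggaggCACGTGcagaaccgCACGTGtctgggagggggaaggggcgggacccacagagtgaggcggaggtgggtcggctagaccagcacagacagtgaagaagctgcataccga
Arntl: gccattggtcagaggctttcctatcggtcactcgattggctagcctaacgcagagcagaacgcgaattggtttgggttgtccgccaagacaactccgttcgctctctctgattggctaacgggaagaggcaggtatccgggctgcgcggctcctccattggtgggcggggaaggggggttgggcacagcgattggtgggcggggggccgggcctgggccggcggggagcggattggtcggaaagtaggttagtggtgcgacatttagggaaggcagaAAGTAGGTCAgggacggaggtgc
The E-box of Cry1 began at position -60, and those of Gm129 at -116, -58 and -44. Searched on both strands, CACGTG was present in 8.09% of the promoters of all 27025 symbols in the table and in 12.3% of the 6877 expressed ones with a promoter. It was found in 0 of the 7 light-higher and 1 of the 13 dark-higher called genes that had a promoter, and in 3 of the 7 clock repressors. The ROR element was present in 0.538% of expressed promoters, and in Arntl it began at position 28. These are matches of letters and not measured binding.

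Among the other genes higher in the light phase, Gde5 and Prei4 are both synonyms of Gpcpd1, a glycerophosphocholine phosphodiesterase, and their ratio stayed between 0.726 and 0.740 in all 12 samples, so they are 1 observation, although both rows are in the counts above. Gde5 ranged from 13.5 to 33.6 rpbp in light (median 20.5) and from 4.68 to 11.1 rpbp in dark (median 5.84), without overlap (log2 difference 1.65 ± 0.26, adjusted p = 0.015, limma). It had separate high points at ZT2 and ZT10. Gch1, GTP cyclohydrolase, which starts tetrahydrobiopterin synthesis, ranged from 29.1 to 41.3 rpbp in light (median 37.4) and from 21.2 to 26.6 rpbp in dark (median 24.3), a log2 difference of 0.59 ± 0.09 (adjusted p = 0.015).

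Mcm10 is a factor of DNA replication initiation. Its 6 light values lay between 8.71 and 9.70 rpbp (median 9.29), and its dark values between 4.01 and 7.29 rpbp (median 4.77), with a log2 difference of 0.84 ± 0.12 (adjusted p = 0.0128). Rcl1, which acts in processing of ribosomal RNA, was at 36.0 to 58.9 rpbp in light (median 48.4) and 26.4 to 32.3 rpbp in dark (median 30.3), a log2 difference of 0.62 ± 0.11 (adjusted p = 0.028), and was kept in 4 of 12 fits that leave out 1 sample. A530088I07Rik (Gsap, a γ-secretase activating protein) was 1.56-fold higher in light (adjusted p = 0.0477) and was kept in 1 of these 12 fits.

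Usp18, Ifit3 and Samd9l belong to the genes that interferon induces. Usp18 removes ISG15 from proteins and dampens the interferon receptor, and its values were 2.24 to 5.13 rpbp in light (median 3.44) and 0.90 to 1.73 rpbp in dark (median 1.27), a log2 difference of 1.31 ± 0.20 (adjusted p = 0.015, limma). Ifit3, an antiviral protein that binds with other IFIT proteins, was at 4.70 to 6.91 rpbp in light (median 6.24) and 2.98 to 4.38 rpbp in dark (median 3.60), a log2 difference of 0.71 ± 0.11 (adjusted p = 0.015). Samd9l was at 4.02 to 6.01 rpbp in light (median 5.55) and 1.85 to 3.53 rpbp in dark (median 2.99), a log2 difference of 0.84 ± 0.15 (adjusted p = 0.0297). None of these genes overlapped between phases, and all were called without the ZT2 samples too, but when 1 sample was left out the call of Samd9l was kept in 4 of 12 fits, that of Usp18 in 11 and that of Ifit3 in 12. Of 13 expressed members of the interferon list, 2 were called light-higher in the light-dark test against 0.127% of all genes, and 7 in the time-point test, against 2.27% (Ifit1, Ifit3, Isg15, Irf7, Usp18, Rsad2 and Ddx58), none was called dark-higher, and 12 had a positive difference. Without ZT2, 2 were called in the light-dark test and 3 in the time-point test, where 2.47% and 5.75% of all genes were light-higher. The list's median log2 difference was 0.53, and 0.39 without ZT2. Isg15 was at 5.34 to 16.5 rpbp in light (median 11.3) and 3.58 to 6.92 rpbp in dark (median 5.04). Its highest values were those of ZT2, and its log2 difference of 0.66 without ZT2 did not pass the test (adjusted p = 0.146). Kupffer cell markers were positive in 11 of 11 members with a median of 0.16 (-0.01 without ZT2), 0 of them called, and had a summed signal of 157.3 to 294.3 rpbp in light and 153.9 to 232.4 rpbp in dark, and their part in the result was not tested. In bulk liver, more cells of a type and more RNA per cell cannot be told apart.

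Promoters of members of this list held the interferon-stimulated response element (GAAA, any NN, then GAAA), on either strand, in 6 of 9 cases with a promoter in the table, against 3.65% of expressed genes and 1 of the 7 light-higher called genes. This motif was added to the search after the values were seen. It is named for such genes, so its share in the list does not bear on light against dark. The promoters of Ifit3 (chr19:34583279-34583578, plus strand), Ifit1 (chr19:34640639-34640938, plus strand) and Isg15 (chr4:156200769-156201068, minus strand; all RefSeq, GRCm38.p6) are printed to show how the matches are spaced, with the matches in capitals.
Ifit3: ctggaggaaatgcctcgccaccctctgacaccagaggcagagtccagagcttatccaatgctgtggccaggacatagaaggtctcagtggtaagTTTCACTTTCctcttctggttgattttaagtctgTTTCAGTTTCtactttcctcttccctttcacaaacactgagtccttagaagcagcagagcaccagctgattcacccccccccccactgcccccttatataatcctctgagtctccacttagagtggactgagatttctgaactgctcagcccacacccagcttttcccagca
Ifit1: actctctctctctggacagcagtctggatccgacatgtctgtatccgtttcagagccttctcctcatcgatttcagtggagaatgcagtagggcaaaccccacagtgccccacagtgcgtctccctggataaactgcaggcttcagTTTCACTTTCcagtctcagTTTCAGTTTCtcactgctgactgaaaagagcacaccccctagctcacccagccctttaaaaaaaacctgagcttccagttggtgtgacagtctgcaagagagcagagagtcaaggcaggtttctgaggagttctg
Isg15: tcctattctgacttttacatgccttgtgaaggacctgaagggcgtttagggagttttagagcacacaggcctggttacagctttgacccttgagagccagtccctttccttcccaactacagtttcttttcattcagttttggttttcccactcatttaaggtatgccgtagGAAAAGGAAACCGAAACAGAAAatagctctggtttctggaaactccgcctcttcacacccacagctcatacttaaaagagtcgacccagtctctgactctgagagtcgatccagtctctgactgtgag
Matches began at -156 and -122 in Ifit3, at -104 and -85 in Ifit1, and at -78, -72 and -66 in Isg15, where the 3 matches overlap. Of these genes Ifit3 was called in the light-dark test and the others in the time-point test alone.

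**Figure D1:**
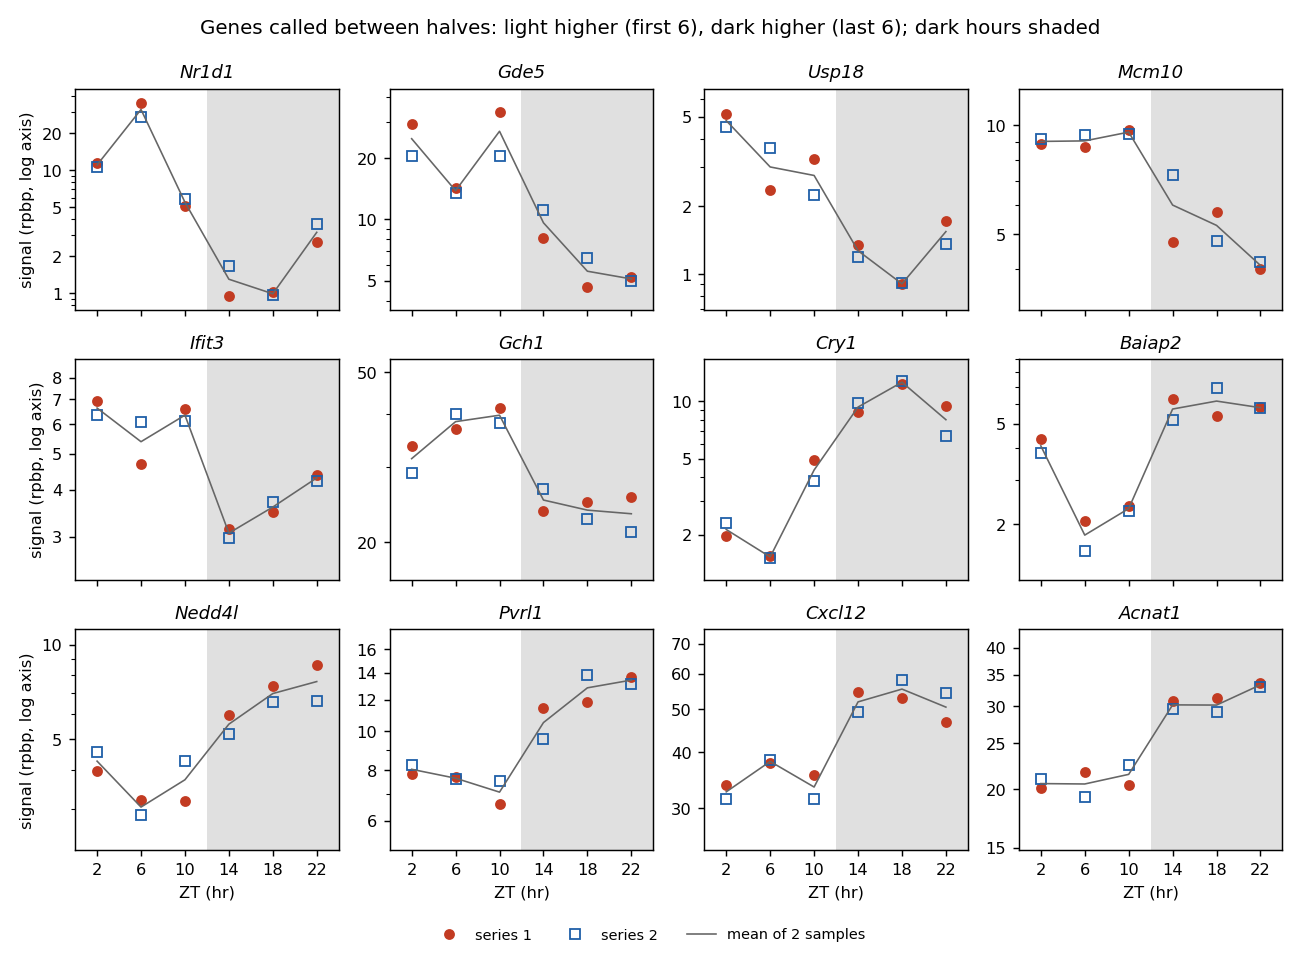
Signal (rpbp, log axis) over the 6 time points for 12 genes called in the light-dark test, with 1 point per sample, the mean of the 2 samples of a time point as a line, and the dark hours shaded. In each of the 12 genes the 6 samples of one phase lie wholly above those of the other, while Nr1d1 and Cry1 also change several-fold within a phase.

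Apart from Cry1 and Baiap2, the genes higher in the dark phase had log2 differences between -0.91 and -0.36. Acnat1, an acyl-CoA to amino acid transferase of peroxisomes, had the lowest adjusted p of all genes. Its light values lay between 19.3 and 22.5 rpbp (median 20.7) and its dark values between 29.1 and 33.7 rpbp (median 31.0), so the gap between phases was wider than the range of either (log2 difference -0.58 ± 0.06, adjusted p = 0.00399, limma). Of its variance between time points, 96.8% lay between the phases. Cxcl12, the chemokine ligand of CXCR4, was at 31.4 to 38.5 rpbp in light (median 34.7) and 46.8 to 58.0 rpbp in dark (median 53.5), a log2 difference of -0.59 ± 0.08 (adjusted p = 0.0128). Fkbp4, an immunophilin that works with HSP90 on steroid receptors, was at 41.8 to 46.6 rpbp in light (median 44.7) and 54.5 to 64.5 rpbp in dark (median 59.0), a log2 difference of -0.41 ± 0.06 (adjusted p = 0.015).

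Pvrl1 (Nectin1), an adhesion molecule, was at 6.59 to 8.25 rpbp in light (median 7.66) and 9.58 to 13.8 rpbp in dark (median 12.5), a log2 difference of -0.67 ± 0.09 (adjusted p = 0.0128). Baiap2, an adaptor between small GTPases and actin, was at 1.56 to 4.34 rpbp in light (median 2.31) and 5.15 to 6.94 rpbp in dark (median 5.79), a log2 difference of -1.11 ± 0.20 (adjusted p = 0.0362), its highest light values were those of ZT2, and it was kept in 2 of 12 fits that leave out 1 sample. Bmp1, a protease that trims procollagen, was at 12.6 to 17.0 rpbp in light (median 14.7) and 19.3 to 23.7 rpbp in dark (median 22.4), a log2 difference of -0.59 ± 0.09 (adjusted p = 0.0128). The row mKIAA4159 kept a ratio to Bmp1 of 0.664 to 0.692 in all 12 samples, so it may hold the same reads, and both rows are in the counts above. Diap1 (Diaph1), a formin that nucleates actin, rose 1.39-fold in the dark phase (adjusted p = 0.0233), and Kif13b, a kinesin, 1.38-fold (adjusted p = 0.0428). They were kept in 6 and 3 of the 12 fits that leave out 1 sample.

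Nedd4l, a ubiquitin ligase known for the epithelial sodium channel, was at 2.87 to 4.54 rpbp in light (median 3.58) and 5.18 to 8.64 rpbp in dark (median 6.62), a log2 difference of -0.84 ± 0.13 (adjusted p = 0.0164). Zfp36l1, which promotes decay of AU-rich mRNAs, was at 29.9 to 43.7 rpbp in light (median 36.7) and 47.5 to 56.7 rpbp in dark (median 52.5), a log2 difference of -0.50 ± 0.09 (adjusted p = 0.046), and was kept in 1 of 12 fits that leave out 1 sample. The noncoding gene Gm17591 overlaps it on the other strand. Klhl25, a substrate adaptor of CUL3 ligases, was 1.5-fold higher in dark (adjusted p = 0.0419), and 5830417C01Rik (Desi2), a deSUMOylating peptidase, 1.72-fold (adjusted p = 0.0272), kept in 4 and 6 of these 12 fits. Ahctf1, the nucleoporin ELYS, was at 4.63 to 6.41 rpbp in light (median 5.45) and 7.47 to 10.4 rpbp in dark (median 8.87), a log2 difference of -0.69 ± 0.10 (adjusted p = 0.0128), and it overlaps the annotated genes Gm1305 and Gm10518. The remaining dark-higher rows were Mtmr4, Lrrc3, 2310031A18Rik (Fam89a), D930048N14Rik, 5430407P10Rik (Proser2) and AK018513. Mtmr4, 2310031A18Rik and 5430407P10Rik were kept in 1 of the 12 fits and Lrrc3 in 2, and D930048N14Rik and AK018513 in 12. A light-higher row without a known product, LOC626578, was at 1.95 to 4.07 rpbp in light and 0.50 to 1.57 rpbp in dark (adjusted p = 0.0489), and was kept in 2 of the 12 fits. Of the 34 rows, 33 did not overlap between phases. The exception was DQ696615, listed at 0 in 4 of its dark samples, with light values of 0.98 to 3.56 rpbp and dark values up to 1.11 rpbp, kept in 3 of the 12 fits. Free of any model, 69 genes (0.677%) had all light values above all dark values and 80 (0.784%) the reverse, and without ZT2 419 genes (4.11%) did in each direction, with fewer samples to separate. Between the series the light-dark difference was not found to differ in any gene (0 called by limma, 237 at an unadjusted p below 0.05).

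How many genes changed within a phase depended on ZT2. A test of change between the time points of the same phase called 1837 genes (18%), and 1554 of them (84.6%) were not called in the time-point test of light against dark. Without 1 of the ZT2 samples it called 609 or 670 genes, and without 1 of the ZT6 samples 972 or 1021. Only ZT2 was left out whole in this test, so that count has no other time point to compare with. Without both ZT2 samples it called 100 genes (0.981%), while the time-point test of light against dark then called 1098 (10.8%), 586 higher in light (5.75%) and 512 higher in dark (5.02%), so the order of the counts turned around. Of the variance between time points, the share between phases had a median of 13.1% over all expressed genes, 86.5% over the 34 called genes and 5.87% over the genes called within phases, where the calls themselves select for high and low shares. Without ZT2 the share over all genes was 31.1%. Of the 34, 5 were also called within phases. Among the genes with the widest swing and a log2 light-dark difference under 0.2, Cyp4a31, a fatty acid hydroxylase, averaged 1.69 rpbp at ZT2, 216.3 at ZT6, 156.8 at ZT10, 18.2 at ZT14, 101.8 at ZT18 and 26.5 at ZT22. Its light-phase values ran from 1.10 to 224.3 rpbp and spanned those of the dark phase, 11.5 to 121.3 rpbp. Without ZT2 it was light-higher by 2.38 on the log2 scale (adjusted p = 0.0384, limma), so its small difference over all samples rests on ZT2. Serpina4-ps1, a serpin pseudogene, averaged 92.4 rpbp at ZT2 and 3.48 rpbp at ZT6, both in light, and between 17.7 and 32.2 rpbp at the dark times. Abcd2, a peroxisomal fatty acid transporter, and Serpinb1a, a protease inhibitor, were lowest at ZT2 and highest at ZT6, as Cyp4a31 was. Their means at ZT2 and ZT6 were 0.29 and 9.04 rpbp for Abcd2 and 0.23 and 5.76 rpbp for Serpinb1a. In the time-point test without ZT2 the mean of the light times was lower for Serpina4-ps1 (log2 difference -0.98, adjusted p = 0.0115) and higher for Abcd2 (1.29, adjusted p = 0.0408), although the light and dark values of both still overlapped.

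Clock genes were counted in the same tests. Of 5 expressed clock activators, 0 were called in the light-dark test. The time-point test called 4 dark-higher (Arntl, Clock and Rora among them), against 3.02% of all genes. Without ZT2 the counts were 2 and 4, against 2.66% and 5.02% of all genes dark-higher. Rora was then no longer called (adjusted p = 0.0927 in the time-point test, limma), and Npas2 was (adjusted p = 0.0244). Arntl was at 0.28 to 5.90 rpbp in light (median 0.91) and 1.94 to 7.35 rpbp in dark (median 6.16), and both ZT2 values, 5.90 and 5.55 rpbp, lay among those of the night (log2 difference -1.63 ± 0.61, adjusted p = 0.276 in the light-dark test). Without the ZT2 samples the difference was -2.57 ± 0.37 (adjusted p = 0.00536). Clock followed it, from 4.05 to 9.96 rpbp in light and 6.75 to 9.55 rpbp in dark, with its highest value at ZT2. Rora, an activating receptor on ROR elements, was at 3.30 to 5.04 rpbp in light and 4.88 to 6.21 rpbp in dark, and Npas2, the paralog of Clock, was at 1.09 rpbp or less in light and 2.56 rpbp or less in dark.

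Of 8 expressed clock repressors, Nr1d1 and Cry1 were called in the light-dark test, where 0.333% of all genes were. Per3, Nr1d2 and Gm129 were light-higher in the time-point test besides, where 2.27% of all genes were. Nr1d2, the second REV-ERB gene, ranged from 6.51 to 25.8 rpbp in light (median 20.2) and 3.36 to 11.4 rpbp in dark (median 4.40), and overlapped only through ZT2 in light and ZT14 in dark (log2 difference 1.47 ± 0.39, adjusted p = 0.141). Per3 averaged 0.095 rpbp at ZT2, 5.5 at ZT6 and 4.79 at ZT10, and then 3.60, 1.20 and 0.295 rpbp through the night. Per1 and Per2, whose proteins partner with CRY, had their highest means at ZT10 and ZT14, on either side of lights off, with log2 differences of 0.12 ± 0.61 and -0.30 ± 0.58. In the time-point test without ZT2 both were light-higher, by 0.94 (Per1, adjusted p = 0.0212, limma) and 0.48 (Per2, adjusted p = 0.0120). That test called 6 of the 8 repressors light-higher and 1 dark-higher, against 5.75% and 5.02% of all genes. Cry2 differed by -0.03 ± 0.24, and 0.161% of its variance between time points lay between phases. All 8 repressors were called in the within-phase test over all samples, which called 1837 of the 10198 expressed genes.

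Dbp, the PAR bZIP factor with the widest swing, averaged 0.720 rpbp at ZT2, 54.3 at ZT6 and 23.5 at ZT10, and 4.50, 1.37 and 0.485 rpbp at the dark times. Its light-phase values spanned 0.49 to 60.3 rpbp and its dark-phase values 0.37 to 5.02 rpbp, so the phases overlapped through ZT2 alone (log2 difference 2.60 ± 1.09, adjusted p = 0.34; without ZT2 4.35 ± 0.59, adjusted p = 0.00375). Tef was light-higher in the time-point test (0.38 ± 0.07, adjusted p = 0.019) and Hlf was called in neither test (-0.05 ± 0.19, adjusted p = 0.935). Nfil3, which opposes them on D-boxes, was at 4.28 to 13.2 rpbp in light (median 6.86) and 12.0 to 21.8 rpbp in dark (median 17.4), a log2 difference of -1.12 ± 0.26 (adjusted p = 0.111), and -1.5 ± 0.19 without ZT2 (adjusted p = 0.00283).

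**Figure D2:**
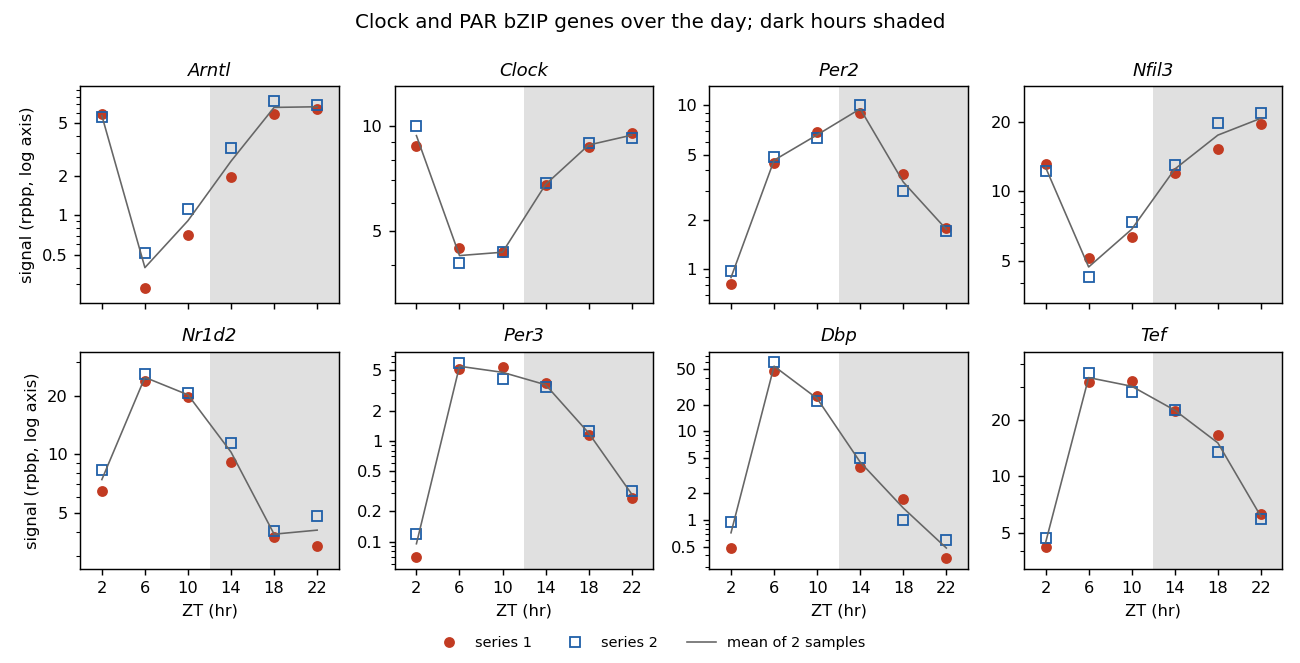
Signal (rpbp, log axis) of 8 clock and PAR bZIP genes over the 6 time points, with 1 point per sample, the mean of the 2 samples as a line, and the dark hours shaded. The ZT2 points of Arntl, Clock and Nfil3 lie above those of ZT6 and ZT10, and the ZT2 points of Dbp, Tef and Per3 lie below them.

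The ZT2 livers were on the dark side in most genes that separated the other times. For each time point, genes were called in the time-point test without it, and each of its samples was placed on a scale from the mean of the other phase (0) to the mean of its own phase (1). Of 1098 genes called without ZT2, the ZT2 samples lay nearer to the light mean in 20.2% and 19.1%. The ZT6 samples were nearer to their own phase in 55.0% and 64.7% of 218 genes, and the ZT18 samples in 56.3% and 64.0% of 455. The ZT10 samples reached 41.9% and 48.5% of 647 genes, those of ZT14 53.3% and 43.7% of 394, and those of ZT22 62.2% and 55.8% of 439. The median position of the ZT2 samples on this scale was -0.148 and -0.169, and those of all others lay between 0.273 and 0.749.

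**Figure D3:**
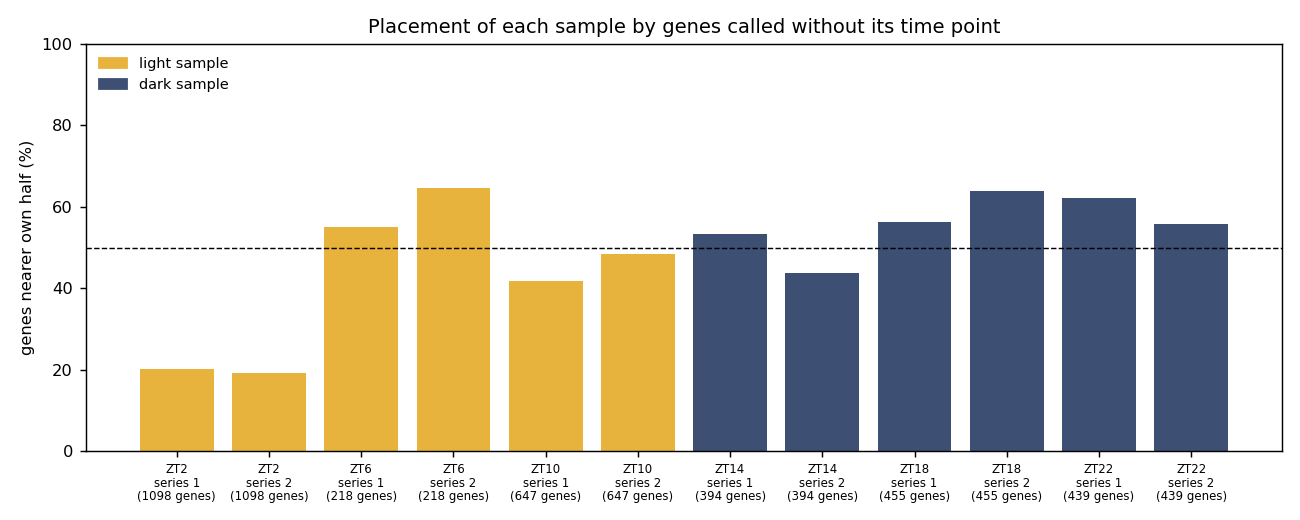
Share (percent) of genes in which each sample lay nearer to the mean of its own phase than to that of the other, over the genes called without its time point (their number below each bar). Both ZT2 samples stand at 20.2% and 19.1%, and the other 10 lie between 41.9% and 64.7%.

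Several metabolic gene lists differed with and without ZT2. Of 26 PPARA fasting targets, which handle fatty acids in the fasted liver, 0 were called in the light-dark test. The time-point test called 1 light-higher (Vnn1) and 1 dark-higher (Pdk4), near the 2.27% and 3.02% of all genes. Without ZT2 11 were light-higher in the light-dark test and 12 in the time-point test, where 2.47% and 5.75% of all genes were. Their median log2 difference went from 0.08 to 0.41. Ehhadh, a peroxisomal β-oxidation enzyme, was at 42.5 to 191.9 rpbp in light (median 148.3) and 66.3 to 106.1 rpbp in dark (median 86.8), with a log2 difference of 0.37 ± 0.37 over all samples (adjusted p = 0.734) and 0.99 without ZT2 (adjusted p = 0.0112). Vnn1, a pantetheinase, was at 3.92 to 46.1 rpbp in light and 0.82 to 17.6 rpbp in dark, and its highest dark value came from 1 ZT18 sample. Pdk4, which shuts pyruvate out of oxidation, went the other way, with 1.3 to 3.50 rpbp in light and 1.3 to 8.20 rpbp in dark (median 7.04). Cytochrome P450 and drug metabolism genes had a median of -0.19 over 31 members and 0.21 without ZT2. The light-dark test called 0, and the time-point test called 5 dark-higher, against 3.02% of all genes. In the same tests without ZT2, 1 and 4 were light-higher, of which the 1 of 31 is near the 2.47% of all genes. Fatty acid synthesis genes went from 0.06 to 0.61 with 0 of 16 called in the light-dark test and 1, Slc25a1, called without ZT2, where 2.47% of all genes were light-higher. In the time-point test 0 were called, and 4 were light-higher without ZT2, against 5.75% of all genes. Methionine and one-carbon genes went from -0.17 to 0.04 over 13 members. In the time-point test 3 were dark-higher (Mat1a and Cth among them), against 3.02% of all genes. Without ZT2 that test called 1 dark-higher, against 5.02%. The light-dark test called 0, and without ZT2 1 dark-higher, against 2.66%. A single call among 13 is near the share of all genes.

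The next 3 lists had lower medians when ZT2 was left out, and 2.66% of all genes were then dark-higher in the light-dark test and 5.02% in the time-point test. Acute phase proteins went from a median of -0.004 to -0.52 over 22 members, with 0 and 2 (Itih3 and Stat3) called dark-higher in the light-dark test and 0 and 6 in the time-point test. Coagulation and complement genes went from -0.08 to -0.22 over 34 members, of which 0 were called over all samples and 6 dark-higher without ZT2 (Hc, C8a, C8b, C9, Cfb and Mbl1). C9, part of the membrane attack complex, was at 107.6 to 519.6 rpbp in light (median 152.9), with its highest values at ZT2, and at 184.2 to 385.4 rpbp in dark (median 217.0). ER chaperones had a median of -0.17 over 27 members and -0.39 without ZT2, with 0 and 4 called dark-higher in the light-dark test, while the time-point test called 0 and, without ZT2, 11 dark-higher and 2 light-higher.

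The medians of some other lists were little changed by ZT2. Their counts stand against 2.27% of all genes light-higher and 3.02% dark-higher in the time-point test, 5.75% and 5.02% in that test without ZT2, and 2.47% and 2.66% in the light-dark test without ZT2. Heat shock chaperones had a median of -0.23 over 19 members and -0.22 without ZT2, with 16 of 19 differences negative. None passed the light-dark test, and 6 were dark-higher in the time-point test, with and without ZT2, and 3 in the light-dark test without ZT2 (over all samples Hsp90aa1, Hsp90ab1, Hsp110, Hspb1, Stip1 and Ahsa2). Stip1, a cochaperone between HSP70 and HSP90, did not overlap, with 11.5 to 15.7 rpbp in light (median 14.3) and 16.3 to 22.7 rpbp in dark (median 17.5). Hsp90aa1, the inducible HSP90, was at 29.2 to 59.2 rpbp in light (median 40.0) and 54.5 to 91.0 rpbp in dark (median 65.6), with its highest mean at ZT14 (log2 difference -0.76 ± 0.18, adjusted p = 0.115). Proteasome subunits were positive in 31 of 34, with a median of 0.12, and 4 were called light-higher in the time-point test (Psma1, Psma3, Psma4 and Psmb5), 3 in that test without ZT2, which is near the share of all genes, and 0 in the light-dark test with or without ZT2. Psma4 was at 51.2 to 60.8 rpbp in light (median 55.5) and 45.2 to 50.4 rpbp in dark (median 46.8). Of 78 ribosomal protein genes, 0 were called in the light-dark test, with or without ZT2, or in the time-point test, and the median was -0.03. By contrast, the NRF2 list of 19 antioxidant genes went from a median of 0.04 to 0.19 without ZT2, with Srxn1, Gsta2 and Gsr light-higher in the time-point test and 5 in that test without ZT2. Over the 47 lists, 5 of 847 distinct expressed genes were called in the light-dark test (Nr1d1, Cry1, Usp18 and Ifit3 among them), where 0.333% of all genes were. Members named from the time-point test or the test without ZT2 were chosen after their values were seen.

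**Figure D4:**
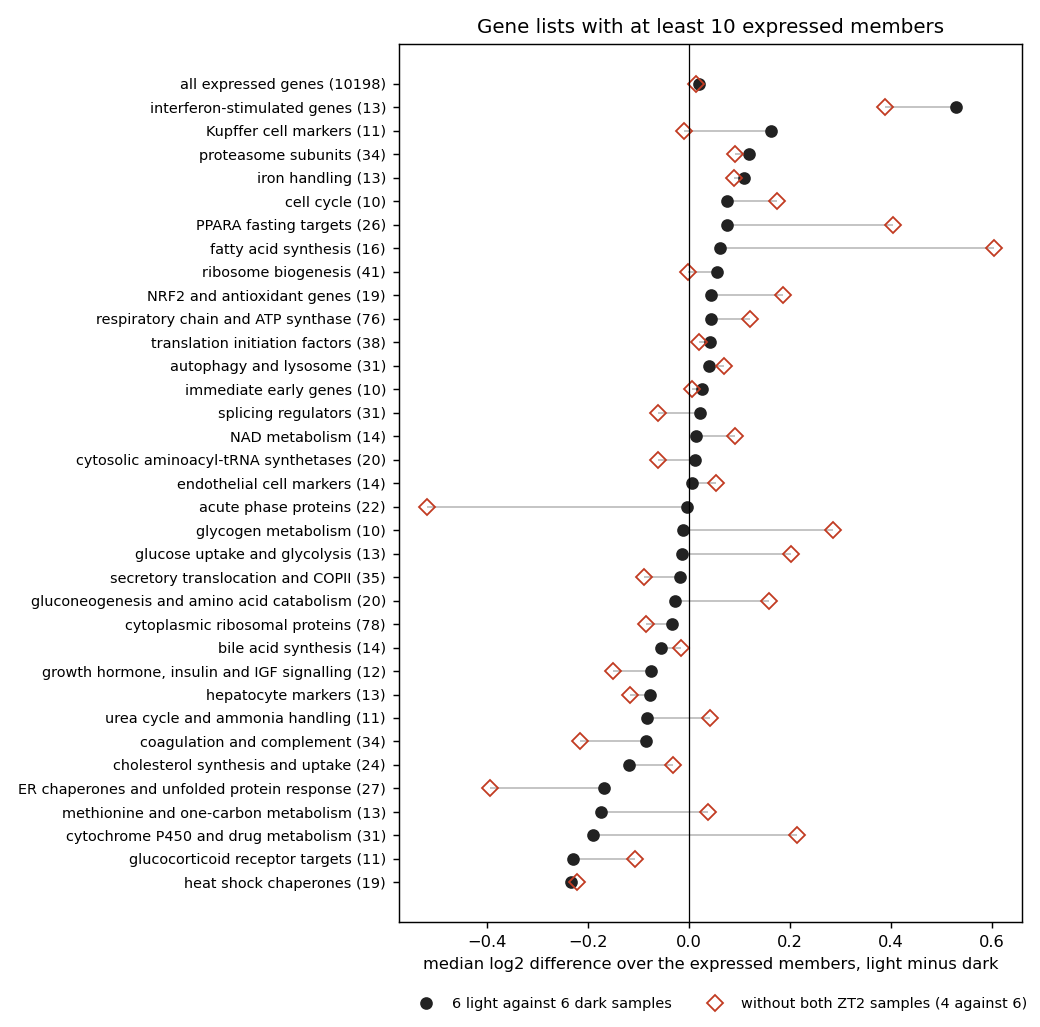
Median log2 difference, light minus dark, over the expressed members of each gene list with at least 10 of them (number in brackets), for 6 against 6 samples (filled) and without both ZT2 samples (open). Interferon-stimulated genes stand highest over all samples at 0.53 and heat shock chaperones lowest at -0.23, while acute phase proteins, PPARA targets and fatty acid synthesis genes depend on ZT2.

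**Figure D5:**
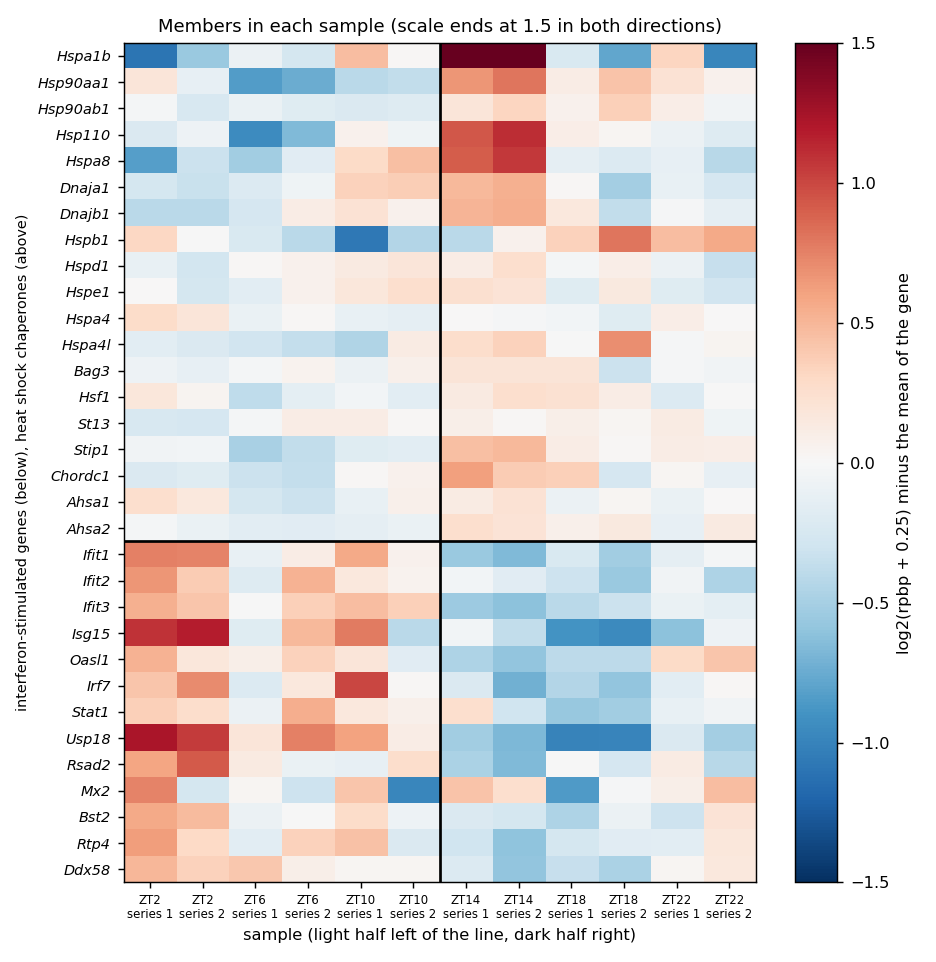
Each member of the heat shock list (above) and the interferon list (below) in each of the 12 samples, as log2(rpbp + 0.25) minus the mean of the gene, with the light samples left of the line and the dark samples right of it. Most interferon members are above their mean at ZT2 in both series, and Hsp90aa1, Hsp110 and Hspa8 are highest at ZT14.

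Markers of other liver cells were compared in the same way. None of 14 endothelial, 7 stellate, 2 cholangiocyte, 2 neutrophil or 3 erythroid members was called in the light-dark test, with or without ZT2, or in the time-point test. Of all genes, 0.333%, 5.13% and 5.30% were called in these tests. Within phases 2 endothelial and 1 cholangiocyte members were called, against 1837 of the 10198 expressed genes. In the time-point test without ZT2 the cholangiocyte marker Sox9 was dark-higher (log2 difference -1.13, adjusted p = 0.0173), as 5.02% of all genes were. The summed signal of the stellate list was 88.3 to 103.9 rpbp in light and 100.1 to 116.5 rpbp in dark, and that of the endothelial list 108.0 to 120.7 and 103.0 to 123.1 rpbp. The erythroid sum ranged from 88.9 to 293.4 rpbp in light and from 88.2 to 201.6 rpbp in dark.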

How the data were processed

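RNA from 12 livers was extracted with Trizol, and poly(A) libraries were made with the TruSeq kit and sequenced on a HiSeq2000. Per the labels and the methods of the study, the authors used CASAVA 1.8 for base calls and TopHat for alignment to mm9, where only uniquely aligned sequences counted. The deposited signal is the coverage over every annotated exon of a gene, taken by the authors without regard to strand, per base of exon and scaled to 10000000 uniquely mapped sequences per sample. Since coverage is not a read count, no interval of counting error is given and no count test was used. The table also holds the authors' own rhythm score, phase and p-value for each gene, which were not used. The columns headed ZT20 were taken as ZT22, the only time point without a column of its name. Reads of overlapping genes or of near-identical copies could be split or shared by this counting.

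Only genes that exceeded 2 rpbp in some sample were analysed. Values were analysed as log2(rpbp + 0.25), so differences of low genes are understated, with limma 3.58.1 in R 4.3.3 (variance trend, Benjamini-Hochberg adjustment over 10198 genes, call at an adjusted p below 0.05). The light-dark test compares 6 with 6 samples, the time-point test fits 1 mean per time point, and the within-phase test is the F-test of the 4 contrasts between time points of one phase. Fits were tested on simulated data. The labels do not say more of the animals than that the series are replicates, so p-values measure the spread between these samples. Library depth is not in the file, and its part in the results was not tested. In the paper's count of uniquely mapped sequences, every light library except ZT2 of series 1 exceeded all dark libraries.

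The comparison and the gene lists were chosen with earlier results of these data known. Named were, per direction, the 12 largest differences among called genes that did not overlap and averaged at least 2 rpbp, every clock and PAR bZIP list member, the called members of other lists (or the 2 largest differences), and 6 genes called within phases and not between them in the light-dark test over all samples. The other called genes and those named from other tests were added after their values were seen. Of 949 list entries 925 were in the table, 47 of them by a RefSeq synonym, and 854 were expressed. Places are from GENCODE M1 (mm9), where 30 of 34 called genes were found, and promoters from RefSeq (GRCm38.p6), where 20 were. Alternatives covered the pseudocount, the minimum, size factors, the variance trend, a series term, each series alone and leaving out each sample or time point. The time-point test without each time point, and the within-phase and overlap counts without ZT2, were added after the data were seen. Some genes are not reported here.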

Additional observations from a re-analysis of the deposited data

Results flagged for a closer look

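Of 104 groups of 6 samples tested for a lone sample (called genes, clock genes and summaries of each sample, in each phase), 2 had a gap to the nearest sample above the critical share of the range, and chance gives about 1 in 20. In 2310031A18Rik (Fam89a) the dark-phase sample of ZT18 in series 2 stood at 6.19 rpbp, with a gap of 0.779 of the range. In Diap1 the light-phase sample of ZT2 in series 2 was highest at 8.89 rpbp (0.638 of the range). In both genes these samples still lay on their own side of the other phase.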

How the results depend on the processing

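The light-dark test gave 13 light-higher and 21 dark-higher genes. Without a minimum it gave 8 and 12, in series 1 or series 2 alone 0 and 0, and in the time-point test 232 and 308. Leaving out both samples of a time point gave 252 and 271 (ZT2), 3 and 6 (ZT6), 7 and 11 (ZT10), 3 and 6 (ZT14), 1 and 1 (ZT18) and 2 and 5 (ZT22). The time-point test, also leaving out a time point, gave 586 and 512 (ZT2), 83 and 135 (ZT6), 314 and 333 (ZT10), 151 and 243 (ZT14), 200 and 255 (ZT18) and 205 and 234 (ZT22). Apart from ZT2 in both tests and ZT10 in the latter, fewer samples went with fewer calls, and the cause was not tested. Leaving out 1 sample gave 6 to 15 light-higher and 11 to 25 dark-higher genes. Counts fell more than 1.5-fold without ZT6 replicate 2 (6 and 12), ZT14 replicate 2 (8 and 13) or ZT18 replicate 2 (8 and 13). They also did for light-higher genes without ZT18 replicate 1 (8) and for dark-higher genes without ZT14 replicate 1 (12), ZT22 replicate 1 (12), ZT10 replicate 2 (11) or ZT22 replicate 2 (12). Of the 34 genes, 17 stayed called in all 12 of these fits. Genes without overlap numbered 78 to 123 light-higher and 86 to 118 dark-higher when 1 sample was left out, which is fewer samples to separate. The within-phase count ranged from 609 to 1847. Without both ZT2 samples, a setting added after the data were seen, 419 genes light-higher and 419 dark-higher did not overlap, and the within-phase count was 100.

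Replicate numbers mark the series. Same-numbered samples did not deviate together (15 pairs of time points, correlation from -0.153 to 0.206, 2 of them over 0.1). The check looks for a deviation shared by a series and cannot tell whether the numbers pair animals. With the series as a replicate block, 11 genes were light-higher, 16 dark-higher and 1529 changed within phases. Size factors gave 13 and 25 genes, and 58 and 98 without overlap, and moved the median of all genes from 0.021 to 0.

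Among the named genes, 5 differences turned sign and passed the test in the time-point test without ZT2, namely AK132490 (1.17, adjusted p = 0.0305), Hlf (0.25, adjusted p = 0.0466), Per2 (0.48, adjusted p = 0.0120), Serpina4-ps1 (-0.98, adjusted p = 0.0115) and Slc16a5 (1.07, adjusted p = 0.0498). The depth of the samples limits low genes most, and their counting error could not be computed from coverage.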

Other observations

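Outside the lists, Chka, Elovl3 and Avpr1a were dark-higher in the time-point test. All genes of this section were chosen after their values were seen. Chka, choline kinase, was at 1.03 to 5.19 rpbp in light (median 1.35) and 3.85 to 9.53 rpbp in dark (median 7.86). Its log2 difference was -1.63 ± 0.09 in the time-point test (adjusted p = 2.24e-05, limma) and -2.26 ± 0.10 in that test without ZT2 (adjusted p = 4.48e-05). The light-dark test did not call it over all samples (± 0.41, adjusted p = 0.126) but did without ZT2 (± 0.26, adjusted p = 0.00207). Its highest light values were both from ZT2. Elovl3, a fatty acid elongase, reached 319.8 and 291.2 rpbp at ZT2 and 360.0 and 346.9 rpbp at ZT22, against 10.1 to 59.5 rpbp at ZT6 and ZT10. Avpr1a, the vasopressin receptor of hepatocytes, was at 2.34 to 3.8 rpbp at ZT6 and ZT10, 18.2 and 16.0 rpbp at ZT2 and 9.80 to 17.96 rpbp in dark.

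On the light side, Rgs16, a regulator of G protein signalling, was at 9.29 to 33.1 rpbp at ZT6 and ZT10, at 0.10 and 0 rpbp at ZT2, and at 0.07 to 2.13 rpbp in dark. In the light-dark test its log2 difference was 2.02 ± 1.20 over all samples (adjusted p = 0.508, limma) and 4.01 ± 0.56 without ZT2 (adjusted p = 0.00478). Upp2, uridine phosphorylase, was at 79.1 to 173.4 rpbp at ZT6 and ZT10, 16.2 and 11.8 rpbp at ZT2 and 9.59 to 63.2 rpbp in dark, and was light-higher in the time-point test with and without ZT2 (adjusted p = 0.0099 and 0.00105, limma) but not in the light-dark test without ZT2 (adjusted p = 0.0549). Btg1, an antiproliferative gene, separated the phases without overlap, with 12.1 to 21.2 rpbp in light and 22.2 to 37.6 rpbp in dark, with an adjusted p of 0.068 in the light-dark test, 0.049 in that test without ZT2 and 0.00927 in the time-point test (limma).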
